A study of Mus musculus with 43 samples.

Results

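The knockouts that CD8+ T cells lost in the lungs of tumour-bearing mice under anti-PD-1 were read by comparing the 3 lung anti-PD-1 libraries with the 3 libraries of the same transduced population before transfer (T0). These were 6 of the 43 samples of the series, 41 of which carried values, and they were taken by their labels and not by any measured value. All 2078 targeted genes were included. The cells were Cas9 Knockin OT-I T cells, whose transgenic receptor recognises ovalbumin, transduced with a lentiviral library of metabolic sgRNAs (5 per gene and 250 nontargeting) and selected on the CD90.1 reporter. T0 cells were sampled on the day of adoptive transfer (day 0), without antibody. Lung cells were CD90.1+ cells recovered by sorting on day 7 from mice with orthotopic KPC_OVA tumours, a mouse pancreatic ductal adenocarcinoma (PDAC) line that expresses ovalbumin, treated with anti-PD-1, an antibody that blocks an inhibitory receptor of T cells. Lung and primary tumour libraries of the same day, under the control IgG and under anti-PD-1 respectively, served for comparison. All groups share the Cas9 allele, the receptor and the sgRNA library, the lungs were taken whole from mice whose antigen is a foreign protein, and the labels give neither the age of the animals nor how many were pooled in a library. The titles call the replicates biological. The p-values measure only the spread between libraries of a group, estimated over all 41 libraries with values, those of other organs included.

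In a pooled knockout screen each T cell carries the sgRNA as a DNA tag, so that an sgRNA whose target the cell needs for division, survival or homing becomes rarer in the recovered population. Activated CD8+ T cells divide fast, and dividing cells have to double their ribosomes, nucleotides and membranes. Glycolysis and the pentose phosphate pathway supply carbon, NADPH and ribose for this, while the respiratory chain supplies ATP and allows the oxidation that the synthesis of aspartate and pyrimidines needs. The library holds enzymes and transporters of all of these pathways, in many cases with a tissue-restricted paralogue beside the common form. Only sgRNA abundance in genomic DNA was measured, so fewer cells of a knockout in the lung may reflect fewer divisions, more death or less entry into the tissue, which cannot be told apart, and expression markers of the sorted cells are not part of these data.

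The level of a gene was the mean of log2(signal + 1) over its 5 sgRNAs, centred on the median nontargeting sgRNA of its library. A change is the mean level in the lung minus that in T0. A level of 0 is that of the median single nontargeting sgRNA, and the mean over nontargeting sgRNAs lay lower in the lung. Before centring that mean was 6.92, 6.64 and 6.32 in lung replicates 1 to 3, beside medians of 7.59, 7.70 and 7.07. In T0 the means were 8.23, 8.17 and 7.60, beside medians of 8.22, 8.21 and 7.61. The deposited signal is normalised and batch-corrected, its sequencing depth is unknown, and its sum was 2882460 to 4228880 in T0 and 2726370 to 3577400 in the lung. Many sgRNAs sat at the lowest value that libraries of a replicate number share, taken here as a zero before normalisation: 17.8%, 30.2% and 10.5% of all sgRNAs in lung replicates 1, 2 and 3, against at most 0.0188% in T0. Among nontargeting sgRNAs the shares were 14%, 19.2% and 5.2%, and their standard deviation was 2.74 to 3.15 in the lung and 1.08 to 1.11 in T0 on the log2 scale. These shares, and those at the lowest level given below, count exact ties between libraries alone and miss other low values, most in lung replicate 3. A signal under 5 was found for 18.2%, 33.2% and 21.7% of all sgRNAs in lung replicates 1, 2 and 3, against at most 0.0658% in T0. Values at the lowest level have no order among themselves, and the pseudocount understates how far such a knockout fell. Most of the library shifted down against the nontargeting median: the median change was -1.07 over all genes and -0.39 over the nontargeting sgRNAs, whose quartiles were -1.85 and 0.39. A gene value is a mean over 5 sgRNAs and a nontargeting value is that of a single sgRNA, so these medians are unlike measures. With libraries centred on the nontargeting mean, the median change over all genes was -0.26. Changes are therefore read against -1.07 as well as against 0.

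Knockouts of ribosomal proteins, RNA polymerases, succinate dehydrogenase, the proteasome and purine synthesis were among the most depleted in the lung under anti-PD-1 (list medians from -6.57 to -5.12). Of 2078 genes, 345 were depleted (16.6%, limma adjusted p at most 0.05) and none was enriched (0%; at an unadjusted p under 0.05 there were 478 genes down and 3 up). The changes of the 345 genes ran from -7.77 to -2.47 with a median of -4.95. Their median level was -0.20, -0.02 and 0.47 in T0 replicates 1 to 3 and -4.63, -5.79 and -4.56 in lung replicates 1 to 3. T0 replicate 3 lay highest and lung replicate 2 lowest, and the lung levels lay below every T0 level for each of the 345 genes. The same separation held for 46.6% of all genes, so a lack of overlap alone was common in this comparison. The count of depleted genes was 567 when the sparse lymph node libraries were left out of the fit. In these libraries 45.4% to 91.6% of sgRNAs were at the lowest value. The count was 100 when the lowest 10% of sgRNAs by mean value were left out, a filter that removed 992 of the 1725 sgRNAs of the depleted genes. At the edge of the threshold, *Idh3b* at -2.56 (adjusted p = 0.0453), *Cox10* at -2.81 (0.0476) and *Gm3244* at -2.88 (0.0479) were inside, and *Atp5o* at -3.03 (0.0505), *Gnpda2* at -2.32 (0.0516) and *Vnn3* at -2.68 (0.0536) outside. Of the 345 calls, 268 were kept when each of the 6 libraries was left out in turn. A named gene whose call was not kept is given with its highest adjusted p and the library concerned, which was 0.237 without lung anti-PD-1 replicate 1 for *Idh3b*, 0.121 without T0 replicate 2 for *Cox10* and 0.189 without lung anti-PD-1 replicate 3 for *Gm3244*.

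The 39 pathway lists held 802 genes, of which 276 were depleted, while 69 of the 1276 genes in no list were depleted (5.41%). In 27 of the 39 lists the depleted share was above 16.6%. No member of any list was enriched. The medians ran from -6.57 for cytosolic ribosomal proteins to -0.52 for the synthesis of glycosylphosphatidylinositol (GPI) anchors. Each list is described by its counts and its median beside the 16.6% and -1.07 of all genes, without a test of the list. The lists were chosen with earlier results of these data known, so the shares inside and outside them are a description. Up to 4 depleted members and the highest member per list are named by a rule, and other members named below were chosen after their values were seen.

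**Figure D1:**
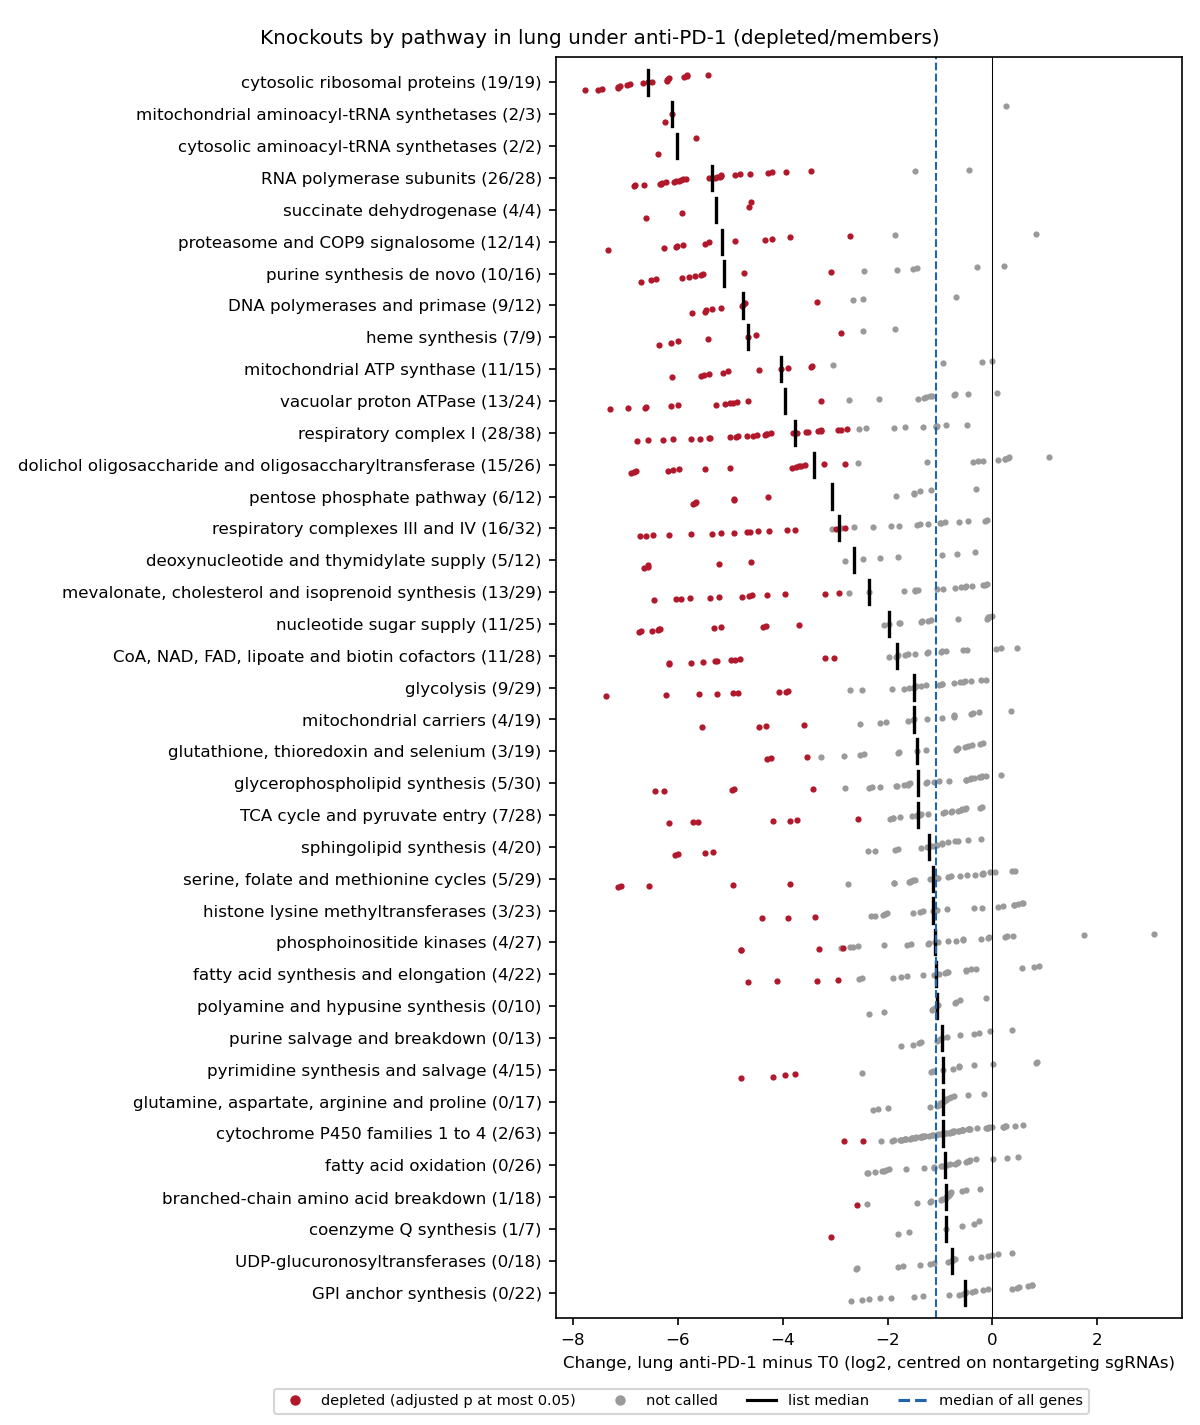
Change of every member of the 39 lists in the lung under anti-PD-1 against T0 (x axis, log2, centred on nontargeting sgRNAs), 1 point per gene, with the number depleted and the number of members beside each list name. Red points are depleted genes, black bars list medians, and the dashed line the median of all genes (-1.07); the lists run from ribosomal proteins (-6.57) at the top to GPI anchor synthesis (-0.52) at the bottom.

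Ribosomal proteins formed the most depleted list: 19 of 19 were depleted, with a median of -6.57. The level of *Rpl36*, a protein of the large subunit and the most depleted gene of the screen in this comparison, was 0.04, 0.27 and 1.31 in T0 and -7.18, -7.44 and -7.07 in the lung. The change was -7.77 ± 0.89 (SE, limma adjusted p = 1.72e-09), and all 15 sgRNA values in the lung were at the lowest level, so its size is set by the T0 level. The level of *Rpl27*, of the same subunit, was -0.35, -0.00 and 1.12 in T0 and -7.24, -7.46 and -6.88 in the lung. All 3 lung libraries again lay far below T0, with a change of -7.45 ± 0.81 (SE, limma adjusted p = 1.56e-09). *Rps19*, of the small subunit, was at -7.14. *Rpl9*, of the large subunit, was at -6.21 ± 0.79 (SE, limma adjusted p = 1.97e-08).

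Transcription followed the same pattern. Of the RNA polymerase subunits 26 of 28 were depleted (median -5.35), across polymerase I, which makes ribosomal RNA, polymerase II, which makes messenger RNA, and polymerase III, which makes transfer RNA and 5S ribosomal RNA. The level of *Polr1b*, the second-largest subunit of polymerase I, was -0.42, -0.18 and 0.80 in T0 and -7.22, -7.43 and -5.63 in the lung. None of the lung values came near T0, and the change was -6.83 ± 0.83 (SE, limma adjusted p = 6.91e-09). The other leading members were *Polr2g* (-6.82), *Polr2e* (-6.64) and *Polr3c* (-6.34), and *Polr1d*, shared by polymerases I and III, was at -6.31 ± 0.88 (SE, limma adjusted p = 1.15e-07). The members not called were a pair of paralogues in polymerase III, *Polr3gl* at -1.47 and *Polr3g* at -0.44. Of the tRNA synthetases, which charge tRNA with amino acids, both cytosolic members (*Eprs* (-6.38) and *Mars* (-5.65)) and 2 of 3 mitochondrial members (*Mars2* (-6.24) and *Ears2* (-6.11)) were depleted.

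Protein degradation was depleted through the proteasome. 12 of 14 members of the list of proteasome and COP9 signalosome subunits were depleted (median -5.15). The level of *Psmc4*, an ATPase of the 19S cap that unfolds substrates, was -0.20, -0.18 and 0.79 in T0 and -7.09, -7.44 and -7.02 in the lung. The change was -7.32 ± 0.83 (SE, limma adjusted p = 1.56e-09). The lung levels lay near those of *Rpl36* (-7.18, -7.44 and -7.07), whose 15 lung values were all at the lowest level. Closeness of levels there does not measure agreement between libraries. *Psmb2* (-6.26) and *Psma3* (-6.02) belong to the 20S core, and *Psmd6* (-6.03) to the cap. In the COP9 signalosome, which removes NEDD8 from cullin ligases, *Cops6* was depleted (-4.20), while *Cops8*, at 0.84 with an adjusted p of 0.681, was the highest member of the list.

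DNA synthesis and the supply of its precursors were depleted in most and in some of their members, respectively. Of the replicative DNA polymerases and primase 9 of 12 members were depleted (median -4.76), led by *Pold2* (-5.73), *Pola1* (-5.48), *Prim2* (-5.46) and *Pole2* (-5.35), and *Pole3*, a histone-fold subunit of polymerase epsilon, was highest at -0.70. For deoxynucleotide supply 5 of 12 members were depleted (median -2.64). The level of *Rrm1*, the large subunit of ribonucleotide reductase, which turns ribonucleotides into deoxyribonucleotides, was -0.23, -0.14 and 0.91 in T0 and -6.20, -7.41 and -5.79 in the lung. The change was -6.64 ± 0.87 (SE, limma adjusted p = 3.58e-08), and *Rrm2*, the small subunit, was at -6.57. *Dut* (-6.56), which removes dUTP, and *Dtymk* (-5.21), which phosphorylates dTMP, were depleted too. The salvage kinases *Tk1* (-2.48, adjusted p = 0.054), *Tk2* (-0.96), *Dck* (-0.67) and *Dguok* (-0.32) did not pass the test. Neither did *Rrm2b* (-1.79), the alternative small subunit, or thymidylate synthase *Tyms* (-2.81, adjusted p = 0.0657, but 0.0282 without lung anti-PD-1 replicate 1).

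Purine synthesis de novo and purine salvage differed in their counts. 10 of 16 members of the de novo list were depleted (median -5.12), against 0 of 13 members of the list of salvage and breakdown (median -0.97). The level of *Ppat*, which catalyses the committed step, was -0.23, 0.17 and 0.89 in T0 and -6.25, -7.34 and -5.69 in the lung. The groups did not overlap and the change was -6.70 ± 0.85 (SE, limma adjusted p = 1.84e-08). *Paics* (-6.51), *Gart* (-6.41) and *Pfas* (-5.93) act on later steps to inosine monophosphate, and both branches after it were depleted as well, with *Adss* (-5.79) and *Adsl* (-5.51) towards AMP and *Impdh2* (-5.68) and *Gmps* (-5.55) towards GMP. *Impdh1*, the paralogue of *Impdh2*, was at -1.82 (adjusted p = 0.324), and *Prps1l1* was the highest member at 0.22. In salvage *Hprt*, which recovers hypoxanthine and guanine, was at -1.06, *Nudt16* lowest at -1.74 and *Ada*, adenosine deaminase, highest at 0.37.

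Pyrimidines gave fewer calls. 4 of 15 members were depleted and the median, -0.95, was above that of all genes. *Cmpk1*, the kinase for CMP and UMP, was at -4.80 ± 0.97 (SE, limma adjusted p = 9.22e-05) and *Dhodh*, the mitochondrial dihydroorotate dehydrogenase, at -4.18 ± 1.08 (SE, limma adjusted p = 0.00244). *Umps* (-3.96, adjusted p = 0.0283, but 0.148 without lung anti-PD-1 replicate 3), which makes UMP, and *Ctps* (-3.76, adjusted p = 0.00713, but 0.0997 without lung anti-PD-1 replicate 2), which makes CTP, were called with less margin, and without lung anti-PD-1 replicate 2 the list kept 2 depleted members. *Cad*, which starts the pathway, was at -2.49 ± 1.45 (adjusted p = 0.316). *Ctps2* was at 0.00 and *Uck2*, which salvages uridine and cytidine, was the highest member at 0.84.

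In the folate and methionine cycles few members were depleted, but *Mthfd1* and *Ahcy* were among the strongest of this comparison. 5 of 29 members were depleted (17.2%, against 16.6% of all genes) while the list median was -1.14. The level of *Mthfd1*, the cytosolic enzyme that interconverts one-carbon folates, was -0.02, 0.04 and 1.33 in T0 and -7.09, -6.22 and -6.77 in the lung. All lung values lay below -6, and the change was -7.14 ± 0.93 (SE, limma adjusted p = 3.26e-08). The level of *Ahcy*, which removes S-adenosylhomocysteine, was -0.26, 0.01 and 1.15 in T0 and -7.20, -7.40 and -5.74 in the lung. Its change was -7.08 ± 0.88 (SE, limma adjusted p = 1.40e-08), and *Mat2a*, which makes S-adenosylmethionine, was at -6.54. The folate carrier *Slc19a1* was at -4.94 and *Fpgs* (-3.86, adjusted p = 0.0126, but 0.147 without lung anti-PD-1 replicate 2), which retains folate in the cell, was the last of the 5. The serine enzymes *Phgdh* (-0.79), *Psat1* (-0.32) and *Psph* (-1.87) and the mitochondrial enzymes *Shmt2* (-1.59) and *Mthfd2* (-1.20) did not pass the test, and *Mat1a*, the liver form of the synthetase, was highest at 0.43. Outside the lists, *Dnmt1*, the maintenance DNA methyltransferase that consumes S-adenosylmethionine, was among the 10 most depleted genes, with levels of -0.38, -0.26 and 0.68 in T0 and -7.05, -7.41 and -7.03 in the lung and a change of -7.18 ± 0.89 (SE, limma adjusted p = 1.06e-08). For *Dnmt1*, 14 of 15 lung values were at the lowest level.

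**Figure D2:**
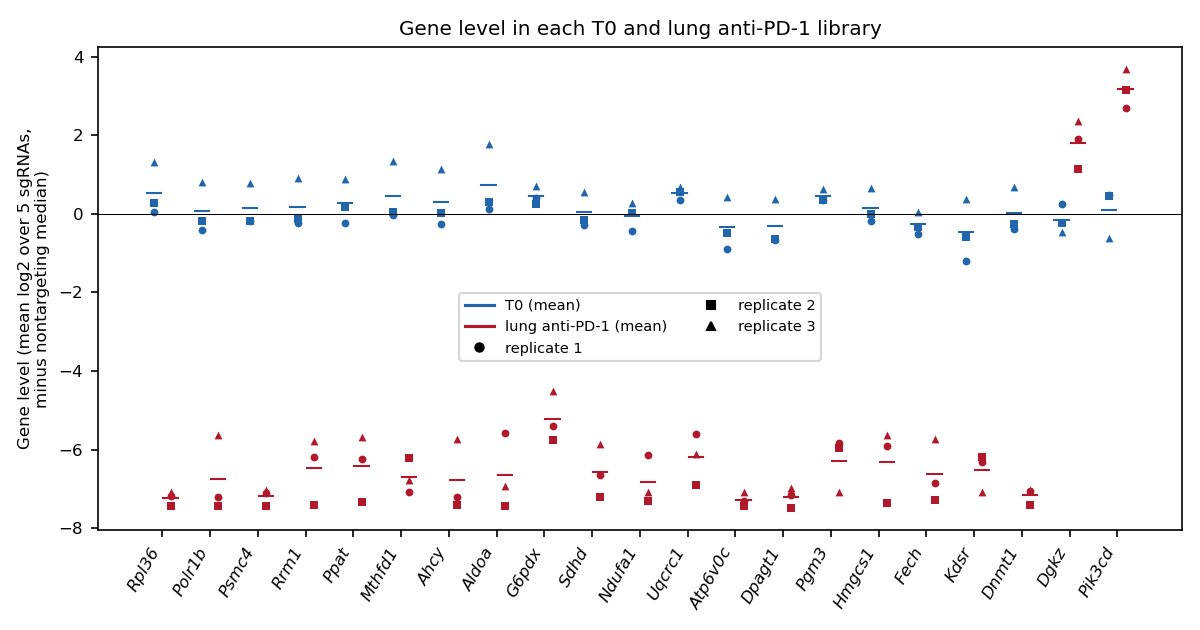
Gene level (y axis, mean log2 over 5 sgRNAs minus the nontargeting median) of 21 named genes in each of the 3 T0 libraries (blue) and 3 lung anti-PD-1 libraries (red), with the replicate number as the symbol and the mean as a bar. The 19 depleted genes lie at -4 or below in every lung library and the other two, *Dgkz* and *Pik3cd*, lie above T0.

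Respiration was depleted at every complex of the chain. For complex I, which oxidises NADH, the list was taken by gene symbol (Nduf), with *Ndufa4* and *Ndufa4l2* among its members. It had 28 of 38 members depleted (median -3.77), and 20 without lung anti-PD-1 replicate 2. The level of *Ndufa1*, an accessory subunit of complex I, was -0.44, 0.01 and 0.27 in T0 and -6.14, -7.30 and -7.07 in the lung. The change was -6.78 ± 0.92 (SE, limma adjusted p = 5.84e-08). *Ndufa2* (-6.56), *Ndufc2* (-6.29) and *Ndufa3* (-6.09) followed, the core subunits *Ndufv1* (-5.74), *Ndufs7* (-5.38) and *Ndufs1* (-4.89) were depleted too, and *Ndufv3* was highest at -0.49. Complex II, succinate dehydrogenase, was depleted in 4 of 4 subunits, with *Sdhd* (-6.61), *Sdha* (-5.91), *Sdhc* (-4.64) and *Sdhb* (-4.60). The level of *Sdhd*, one of its membrane anchors, was -0.29, -0.16 and 0.57 in T0 and -6.66, -7.20 and -5.86 in the lung. The groups were far apart and the change was -6.61 ± 0.96 (SE, limma adjusted p = 2.87e-07).

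For complexes III and IV with cytochrome c, 16 of 32 members were depleted (median -2.93). The level of *Uqcrc1*, a core subunit of complex III, was 0.35, 0.54 and 0.68 in T0 and -5.60, -6.89 and -6.11 in the lung. Its change was -6.72 ± 1.06 (SE, limma adjusted p = 1.13e-06), and *Uqcr10* (-6.61) and *Uqcrb* (-6.48), of the same complex, were close to it. In complex IV *Cox7b* was at -6.17 and the heme A synthase *Cox15* at -5.75. *Cycs*, the somatic cytochrome c that carries electrons from complex III to complex IV, was at -5.18. Among tissue-restricted forms of a pair, *Cox7b2*, the highest member, was at -0.10, *Cox8c* at -0.15, *Cox6a2* at -1.01 and *Cox4i2* at -1.38, beside *Cox4i1* at -4.26, whereas *Cox6b2* (-2.97, adjusted p = 0.0362, but 0.179 without lung anti-PD-1 replicate 2) was called and its common form *Cox6b1* (-2.64) was not. ATP synthase was depleted in 11 of 15 members (median -4.04), and in 8 without lung anti-PD-1 replicate 2. It was led by the F1 subunits *Atp5a1* (-6.11), *Atp5d* (-5.56), *Atp5b* (-5.50) and *Atp5c1* (-5.40). The genes of its c ring, *Atp5g3* (-0.95), *Atp5g1* (-0.19) and *Atp5g2* (-0.01), which encode the same mature protein, were not called.

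In the TCA cycle the depletion was uneven. 7 of 28 members were depleted and the median was -1.42. The 3 components of the 2-oxoglutarate dehydrogenase complex were lowest, with *Dlst* at -6.17 ± 0.92 (SE, limma adjusted p = 4.47e-07), *Ogdh* at -5.72 ± 0.84 (SE, limma adjusted p = 2.97e-07) and *Dld*, which also serves pyruvate dehydrogenase, at -5.61 ± 0.96 (SE, limma adjusted p = 5.67e-06). *Idh3a*, of the NAD-dependent isocitrate dehydrogenase, and fumarase *Fh1* were depleted at -4.18 and -3.86. The components particular to pyruvate dehydrogenase, *Pdha1* (-0.60), *Pdhb* (-0.91), *Dlat* (-0.77) and *Pdhx* (-1.39), did not pass the test, nor did citrate synthase *Cs* (-1.37), the mitochondrial pyruvate carrier *Mpc1* (-0.50) or *Acly* (-1.54), which makes cytosolic acetyl-CoA. *Me3*, a mitochondrial malic enzyme, was highest at -0.19.

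Prosthetic groups and cofactors of these enzymes were depleted as well. For heme synthesis 7 of 9 members were depleted (median -4.66). The level of *Fech*, which inserts iron into the ring, was -0.52, -0.33 and 0.05 in T0 and -6.85, -7.28 and -5.72 in the lung. Its change was -6.35 ± 0.93 (SE, limma adjusted p = 2.94e-07). *Cpox* (-6.14), *Alad* (-5.99) and *Alas1* (-4.66), the first enzyme in most tissues, were depleted, while the erythroid form *Alas2* was at -1.85 (adjusted p = 0.268). Of the cofactor list 11 of 28 members were depleted (median -1.81). For coenzyme A, *Ppcdc* (-6.17), *Ppcs* (-6.17) and *Coasy* (-5.29) were depleted and the 4 genes of the pantothenate kinase family, *Pank1* to *Pank4*, whose kinases act one step earlier, were not (changes from -1.67 to -0.55). *Nfs1* (-5.75) supplies sulphur for iron-sulphur clusters, *Rfk* (-5.53) and *Flad1* (-5.25) make FMN and FAD, *Lipt1* (-4.98) and *Lias* (-4.91) attach and make lipoate, and *Nampt* (-4.81) recycles nicotinamide to NAD. For coenzyme Q 1 of 7 members passed the test, namely *Coq5* (-3.08, adjusted p = 0.0341, but 0.149 without lung anti-PD-1 replicate 1).

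In glycolysis 9 of 29 members were depleted (median -1.50), on the steps from *Gpi1*, the phosphoglucose isomerase, to lactate other than phosphofructokinase. The level of *Aldoa*, the main aldolase of most tissues, was 0.12, 0.29 and 1.78 in T0 and -5.57, -7.44 and -6.92 in the lung. Lung replicate 1 was the highest of the lung libraries and still far below T0, with a change of -7.37 ± 0.95 (SE, limma adjusted p = 2.40e-08). The paralogue *Aldoc* (-1.69) did not pass the test. *Tpi1* (-6.23), *Pgam1* (-5.60) and *Pkm* (-5.26) completed the leading members, and *Gapdh* (-4.94), *Gpi1* (-4.07) and *Ldha* (-3.90) were depleted, with *Ldhb* at -0.97. The steps of glucose uptake and phosphorylation had no call, with the transporters *Slc2a1* (-2.48) and *Slc2a3* (-1.59), the hexokinases *Hk2* (-2.71) and *Hk1* (-0.62) and the phosphofructokinases *Pfkp* (-1.91), *Pfkm* (-1.02) and *Pfkl* (-0.52). The muscle mutase *Pgam2* was highest at -0.13. *Gapdh-ps15*, annotated as a pseudogene of *Gapdh*, was at -7.25 ± 0.81 (SE, limma adjusted p = 1.56e-09). Whether its sgRNAs also cut *Gapdh* was not tested.

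The pentose phosphate pathway, which branches from glucose 6-phosphate, was depleted in 6 of 12 members (median -3.06). The level of *G6pdx*, the X-linked enzyme that opens the oxidative branch, was 0.39, 0.26 and 0.70 in T0 and -5.40, -5.75 and -4.50 in the lung. The change was -5.66 ± 0.98 (SE, limma adjusted p = 6.38e-06). *Pgls* (-4.28) and *Pgd* (-4.93) complete that branch, and *Rpe* (-5.70), *Rpia* (-4.92) and *Tkt* (-5.65) belong to the non-oxidative branch, in which *Taldo1*, transaldolase, was at -1.49 (adjusted p = 0.416). The paralogues *G6pd2* (-1.17), *Tktl2* (-1.85) and *Tktl1* (-0.32) and *H6pd* (-1.49), the form of the endoplasmic reticulum, did not pass the test.

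Acidification of endosomes and lysosomes by the vacuolar proton ATPase was depleted in 13 of 24 members (median -3.96), with a split between paralogues. The level of *Atp6v1g1*, a stalk subunit, was -0.46, 0.00 and 1.20 in T0 and -7.22, -7.35 and -6.57 in the lung. Its change was -7.29 ± 0.82 (SE, limma adjusted p = 1.56e-09). The level of *Atp6v0c*, which forms the proton-carrying ring, was -0.91, -0.49 and 0.41 in T0 and -7.31, -7.43 and -7.07 in the lung. All 15 lung values of this gene were at the lowest level, and the change was -6.94 ± 0.82 (SE, limma adjusted p = 3.49e-09). *Atp6v0b* (-6.62) and *Atp6v0d1* (-6.61) were next. For subunits with several forms, *Atp6v1g2*, the highest member, was at 0.08 and *Atp6v1g3* at -0.74 beside *Atp6v1g1*, *Atp6v1b1* was at -1.26 beside *Atp6v1b2* at -5.10, and *Atp6v1e2* at -1.20 beside *Atp6v1e1* at -6.14.

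Glycosylation was depleted in part of the lists for donor sugars and for the lipid-linked oligosaccharide. Depleted genes of Golgi steps, in no list, are given under the other observations. Of the nucleotide sugar list 11 of 25 members were depleted (median -1.97). The level of *Pgm3*, which makes N-acetylglucosamine 1-phosphate on the way to UDP-N-acetylglucosamine, was 0.36, 0.35 and 0.62 in T0 and -5.82, -5.96 and -7.07 in the lung. Its change was -6.73 ± 0.96 (SE, limma adjusted p = 1.90e-07). *Gne* (-6.70) starts sialic acid synthesis, and *Ugp2* (-6.49) makes UDP-glucose. *Gfpt1*, the first enzyme of the hexosamine pathway, was at -6.35 and its paralogue *Gfpt2* at -0.09. *Ogt*, which attaches N-acetylglucosamine to intracellular proteins, was depleted (-5.31), and *Gnpda1* was highest at -0.00.

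Of the list for the dolichol-linked oligosaccharide and its transfer, 15 of 26 members were depleted (median -3.40), and 10 without lung anti-PD-1 replicate 2. The level of *Dpagt1*, which adds the first sugar to dolichol phosphate, was -0.67, -0.65 and 0.37 in T0 and -7.16, -7.49 and -6.98 in the lung. The change was -6.89 ± 0.84 (SE, limma adjusted p = 6.94e-09). *Alg2* (-6.83) and *Alg13* (-6.79) act next, the latter with all 15 lung values at the lowest level, and *Dolk* (-6.19) makes dolichol phosphate. The mannosyltransferases inside the endoplasmic reticulum, *Alg3* (-0.37), *Alg12* (-0.28) and *Alg9* (0.23), were not called, nor were the subunits of dolichol phosphate mannose synthase, *Dpm1* (-0.18) and *Dpm3* (0.24) and the highest member *Dpm2* (1.07), or the catalytic transferase subunits *Stt3a* (0.10) and *Stt3b* (0.29), each of which can stand in a complex without the other. GPI anchor synthesis, which uses the same mannose donor, had 0 of 22 members depleted and the highest median of the lists (-0.52), from *Pigs* at -2.70 to *Pigf* at 0.76.

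In the mevalonate pathway 13 of 29 members were depleted (median -2.34). The level of *Hmgcs1*, the cytosolic synthase that starts the pathway, was -0.18, -0.01 and 0.64 in T0 and -5.92, -7.36 and -5.63 in the lung. The change was -6.46 ± 0.94 (SE, limma adjusted p = 3.00e-07). Steps from there to the isoprenoids were depleted, with *Mvk* (-5.94), *Pmvk* (-4.78), *Mvd* (-4.65), *Idi1* (-3.95) and *Fdps* (-4.30), followed by *Ggps1* (-5.38), which makes geranylgeranyl diphosphate, *Fnta* (-5.20), a prenyltransferase subunit, and the dolichol chain makers *Dhdds* (-6.04) and *Nus1* (-5.76). Enzymes of the sterol branch did not pass the test, with *Fdft1* (-0.71), *Sqle* (-2.73), *Lss* (-1.06), *Cyp51* (-1.47) and *Dhcr7* (-0.38). *Acat2* was highest at -0.10. This division of the list by branch was made after the values were seen and was not tested.

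Other lipid pathways gave a few deep losses in lists whose medians were close to that of all genes. For sphingolipids 4 of 20 members were depleted (median -1.21). The level of *Kdsr*, the second enzyme of the pathway, was -1.19, -0.59 and 0.37 in T0 and -6.30, -6.19 and -7.07 in the lung. Its change was -6.05 ± 0.88 (SE, limma adjusted p = 2.57e-07). *Sptlc1* (-6.00) and *Sptlc2* (-5.33) form the first enzyme and *Ugcg* (-5.48) makes glucosylceramide, while the 6 ceramide synthases lay between -1.36 and -0.22 and were not called. For glycerophospholipids 5 of 30 were depleted (median -1.42), with *Cdipt* (-6.44), phosphatidylinositol synthase, *Pisd* (-6.27), which makes phosphatidylethanolamine in mitochondria, *Cds2* (-4.97), which makes CDP-diacylglycerol, and *Pgs1* (-4.92), on the way to cardiolipin, and *Cept1* was highest at 0.15.

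Fatty acid synthesis and oxidation had 4 of 22 and 0 of 26 members depleted (18.2% and 0%, against 16.6% of all genes). *Mecr*, at -4.66 ± 1.09 (SE, limma adjusted p = 7.45e-04), and *Mcat* (-3.35, adjusted p = 0.0206, but 0.0919 without lung anti-PD-1 replicate 3) belong to the mitochondrial synthesis of fatty acids, which feeds lipoate. *Scd1* (-4.11) is a desaturase, and *Tecr* (-2.94, adjusted p = 0.0429, but 0.165 without lung anti-PD-1 replicate 1) acts in elongation. Without T0 replicate 1, T0 replicate 3 or lung anti-PD-1 replicate 2 the synthesis list kept 2 depleted members. The cytosolic synthase *Fasn* (-1.74, adjusted p = 0.416) and acetyl-CoA carboxylase *Acaca* (-2.54, adjusted p = 0.217) did not pass the test. *Elovl1*, an elongase of very long chains, had levels of -0.06, -0.17 and -0.32 in T0 and -0.21, -2.07 and -0.81 in the lung. Its change of -0.85 ± 0.89 (SE, limma adjusted p = 0.636) was near the median of all genes, and *Elovl6* was highest at 0.89. For oxidation the median was -0.91, with the carnitine transferases *Cpt1a* (-0.46) and *Cpt2* (0.49), the latter the highest member, and *Etfb* (-2.39) and *Etfa* (-2.36), which pass electrons on to the chain, lowest.

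Kinases of phosphoinositides, redox enzymes, mitochondrial carriers and histone methyltransferases had between 3 and 4 depleted members each. In that order the depleted shares were 14.8%, 15.8%, 21.1% and 13.0%, near the 16.6% of all genes. The list medians were -1.10, -1.45, -1.49 and -1.13, beside -1.07 over all genes. The phosphatidylinositol 4-kinases *Pi4kb* (-4.80) and *Pi4ka* (-4.79) were depleted, as were *Ippk* (-3.30, adjusted p = 0.0261, but 0.214 without lung anti-PD-1 replicate 2) and *Pikfyve* (-2.85, adjusted p = 0.0264, but 0.195 without lung anti-PD-1 replicate 1), in a list with 4 of 27 called. That count was 2 without T0 replicate 1, 2 or 3 or lung anti-PD-1 replicate 2. It rose to 5 when lung anti-PD-1 replicate 3 was left out and to 6 when replicate 1 was, where *Pik3ca*, a catalytic subunit of phosphoinositide 3-kinase, was at -4.09 (limma adjusted p = 0.00802, against -2.89 and 0.0632 with all libraries). Of the redox list 3 of 19 were called, *Txnrd1* (-4.30), *Gss* (-4.23) and *Sepsecs* (-3.54), and *Gclc* (-3.27) and *Gpx4* (-2.82), which make glutathione and protect membrane lipids, brought the count to 5 without lung anti-PD-1 replicate 1. Of the carriers 4 of 19 were called, with *Slc25a3* (-5.54), which brings phosphate to ATP synthase, lowest, and among the others *Slc25a26* (-4.31), which carries S-adenosylmethionine, and *Slc25a22* (-3.60). *Slc25a11* was highest at 0.35. Of the methyltransferases 3 of 23 were called, namely *Kmt5a* (-4.39), *Kmt2a* (-3.89) and *Setd1a* (-3.39, adjusted p = 0.0327, but 0.358 without lung anti-PD-1 replicate 3), with *Setd1b* at 0.58.

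Amino acid and detoxification lists stayed at or above the median of all genes. For glutamine, aspartate, arginine and proline 0 of 17 members were depleted (median -0.94), with *Got2* (-2.28) and *Pycr1* (-2.19) among the lowest, and *Pycr1*, of proline synthesis, was called without lung anti-PD-1 replicate 2 (adjusted p = 0.0334). For polyamines 0 of 10 were depleted (median -1.06), with *Odc1*, the first enzyme, at -1.04, *Amd1* lowest at -2.35 and *Agmat* highest at -0.12. For branched-chain amino acids 1 of 18 was depleted, *Pcca* (-2.58, adjusted p = 0.0382, but 0.146 without lung anti-PD-1 replicate 2), and this count was 0 whichever of the 6 libraries was left out. Of 63 cytochromes P450 of families 1 to 4, 2 were depleted (median -0.94), *Cyp4a31* (-2.83, adjusted p = 0.0429, but 0.214 without lung anti-PD-1 replicate 1) and *Cyp2d10* (-2.47, adjusted p = 0.0431, but 0.239 without lung anti-PD-1 replicate 3), and none without T0 replicate 1, 2 or 3 or lung anti-PD-1 replicate 1. Of the UDP-glucuronosyltransferases 0 of 18 were depleted (median -0.77), and 1 was called without lung anti-PD-1 replicate 1 (*Ugt2a3*, adjusted p = 0.046) or replicate 3 (*Ugt1a1*, adjusted p = 0.016). Both families have close homologues, and whether an sgRNA cuts more than 1 of them was not tested.

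At the upper end no gene passed the test. The level of *Pik3cd*, the catalytic subunit p110 delta of the leukocyte phosphoinositide 3-kinase, was 0.47, 0.46 and -0.61 in T0 and 2.69, 3.15 and 3.68 in the lung. All 3 lung values lay above T0 and all 5 sgRNAs had positive changes (2.71 to 3.51, SD 0.34), with a change of 3.07 ± 1.14 (SE, limma adjusted p = 0.0555). The level of *Dgkz*, a diacylglycerol kinase that limits T cell receptor signalling, was 0.24, -0.23 and -0.46 in T0 and 1.89, 1.14 and 2.35 in the lung. The lung values again lay above T0 and the change was 1.95 ± 0.96 (SE, limma adjusted p = 0.211). *B3gnt2*, which extends poly-N-acetyllactosamine chains, was at 1.30 ± 1.22 (SE, limma adjusted p = 0.594). With the sparse lymph node libraries left out of the fit *Pik3cd* and *Dgkz* passed the test (adjusted p = 0.000173 for *Pik3cd* and 0.00906 for *Dgkz*), together with *Pik3r1* (1.75, adjusted p = 0.213 with these libraries and 0.0064 without), the regulatory partner of *Pik3cd*. These values lie further from the median of all genes (-1.07) than from 0. Across all genes, 39 lay above every T0 library in all 3 lung libraries.

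The 5 sgRNAs of a gene agreed in direction for most of the depleted genes. Of the 345 genes, 309 had 5 sgRNAs with a decrease (89.6%), 35 had 4 (10.1%) and 1, *Pde7b*, had 3. Among all genes 24.8% had 5 and among genes not called 11.9%, and since the depleted genes were chosen on the mean of the same sgRNA changes, their share is a description. A stricter count asks for all 3 lung values of an sgRNA to be below all 3 T0 values, which 23.4% of all targeting sgRNAs and 13.2% of nontargeting sgRNAs met. By that count 96 depleted genes had 5 such sgRNAs, 116 had 4, 79 had 3, 40 had 2, 13 had 1 and 1, *Cox6b2* (-2.97, adjusted p = 0.0362, but 0.179 without lung anti-PD-1 replicate 2), had none. Among the 1733 genes not called, 842 had none, 671 had 1 and 177 had 2, and the 4 with at least 4 were *Atp5o* (-3.03, adjusted p = 0.0505, 5 of 5), *Acsl4* (-2.88), *Pigu* (-2.35) and *Slc7a7* (-2.06). The shares followed the pathways: 93.7% of the sgRNAs of ribosomal proteins met it, 85% for succinate dehydrogenase, 75.7% for RNA polymerases, 51.1% for complex I and 16.4% for GPI anchor synthesis.

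Tested one by one, 896 of 10640 sgRNAs were depleted (8.42%, limma adjusted p at most 0.05) and none was enriched (1732 down and 1 up at an unadjusted p under 0.05). Of these, 803 belonged to depleted genes, 90 to genes not called and 3 were nontargeting. Of the depleted genes 298 had at least 1 depleted sgRNA and 230 at least 2, and 47 had none, so that their call rests on the mean of 5. No gene outside the 345 had more than 2, and *Tk1* (-2.48, adjusted p = 0.054) was the one with 2. The count of single sgRNAs fell to 585 without T0 replicate 3. The share of lung values at the lowest level was 59.5% for sgRNAs of depleted genes, 11.7% for those of genes not called and 12.8% for nontargeting sgRNAs. All 3 lung values were at that level for 544 of the 1725 sgRNAs of depleted genes (31.5%), for 51 of the 8665 others (0.589%) and for 7 of 250 nontargeting sgRNAs (2.8%). A depleted gene had a median of 9 of its 15 lung values there, so the losses were in large part from a present sgRNA to no detectable signal.

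**Figure D3:**
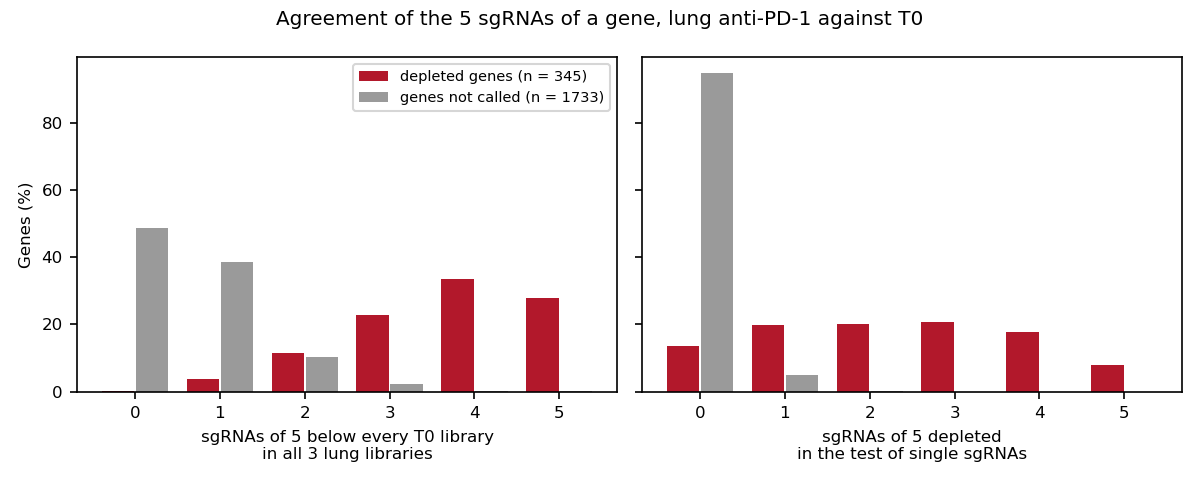
Share of genes (y axis, %) by the number of their 5 sgRNAs that lay below every T0 library in all 3 lung libraries (left) or were depleted in the test of single sgRNAs (right), for 345 depleted genes (red) and 1733 genes not called (grey). Depleted genes peak at 4 and 5 sgRNAs on the left, with 116 and 96 genes, and genes not called at none on both sides.

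The spread over the 5 sgRNA changes had a median SD of 1.79 in depleted genes and 1.54 over all genes. The gene accounted for part of the variation between sgRNAs, with an intraclass correlation of 0.45 over all genes, 0.17 within the depleted and 0.02 within the genes not called, given as a description since the depleted genes were chosen on the same values. The tightest were *Gapdh-ps15* (SD 0.18), *Rpl3* (0.39) and *Rps13* (0.41). For *Gapdh-ps15* the 5 changes were -7.46, -7.42, -7.19, -7.15 and -7.05, and for *Rpl3* they were -7.63, -7.29, -7.10, -6.85 and -6.63. The signal of every sgRNA of *Rpl3* was 125 to 494 in T0 and at most 0.509 in the lung, so its spread is largely that of the T0 values.

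At the other end of the spread, 1 or more sgRNAs stayed near or above their T0 level while the rest were lost. *Atp6v1b2*, a subunit of the vacuolar ATPase, had the largest SD (3.81), with changes of -8.06, -7.33, -6.70, -4.78 and 1.36. The signal of its retained sgRNA was 345, 700.2 and 292 in T0 and 3138, 185 and 638 in the lung, and that of its lowest 461, 599.6 and 767 and 0.248, 1.79 and 0. Lung replicate 1 carried most of the retained signal. *Atp5h* (-3.45, adjusted p = 0.00822, but 0.0527 without lung anti-PD-1 replicate 2), of ATP synthase, was next (SD 3.73), with changes of -6.86, -6.78, -4.25, -1.02 and 1.69. *Pde7b*, a cyclic AMP phosphodiesterase, was the third (SD 3.67), with changes of -6.68, -6.20, -4.75, 0.65 and 0.74, so that 3 sgRNAs had negative changes and the other two positive ones. Its highest sgRNA had signals of 762, 1005 and 518 in T0 and 541, 964 and 1114 in the lung.

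Such a retained sgRNA also occurred in genes of the deepest pathways. Of the 345 depleted genes, 53 had an sgRNA above the nontargeting median change of -0.39, and 11 of these had at least 3 sgRNAs depleted in the single test, among them *Rpn1*, *Rpl35a*, *Hccs*, *Uqcrc2*, *Polr3f*, *Atp6v1b2*, *Pole*, *Atp6v0a2*, *Alas1* and *Pde7b*. For *Rpn1*, a subunit of the oligosaccharyltransferase, 4 sgRNAs were at -9.37, -7.26, -7.06 and -6.37 and the fifth at 0.14. The signal of that sgRNA was 171, 149 and 174 in T0 and 137, 101 and 132 in the lung. For *Rpl35a* the retained sgRNA was at 0.37. *Ogdh* had 4 sgRNAs at -8.12, -6.86, -6.64 and -6.41 and the fifth at -0.55. In all of these the gene level understates the change of the other sgRNAs, and how efficiently each sgRNA cuts was not tested.

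**Figure D4:**
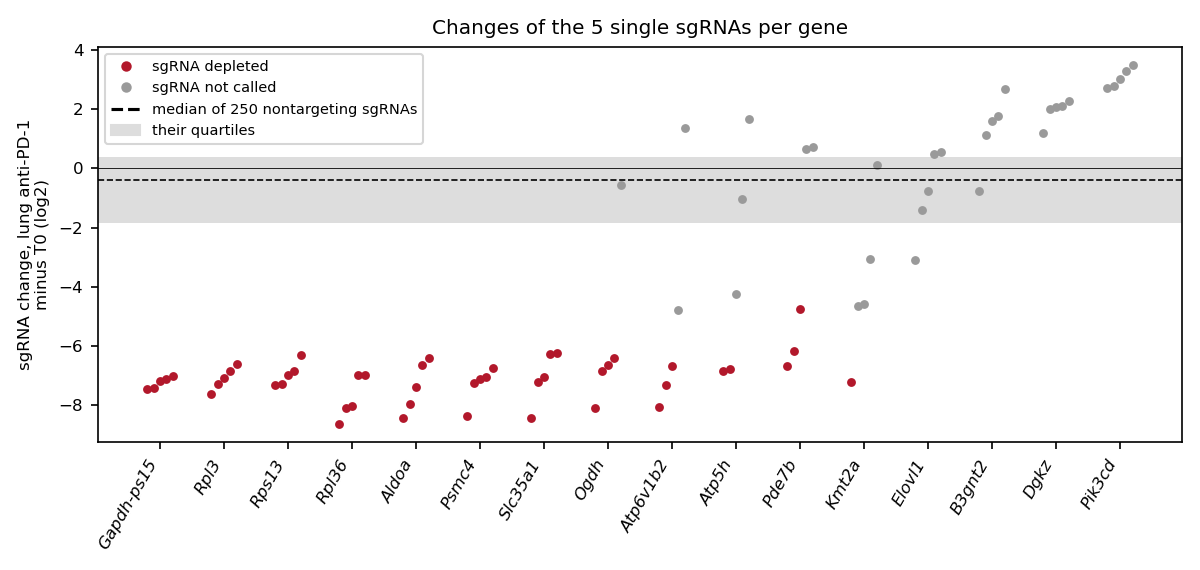
Change of each of the 5 sgRNAs (y axis, log2, lung anti-PD-1 minus T0) for 16 genes; red points were depleted in the test of single sgRNAs and grey points were not, and the dashed line and grey band give the median (-0.39) and quartiles of the 250 nontargeting sgRNAs. *Gapdh-ps15* and *Rpl3* form tight groups, while *Atp6v1b2*, *Atp5h* and *Pde7b* have sgRNAs on both sides of 0.

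Whether the loss depended on the antibody was read against the lung libraries under IgG. In the fit over all 41 libraries no gene differed (0 of 2078, 0%), with 95 at an unadjusted p under 0.05, of which 62 were higher and 33 lower under anti-PD-1. The count was 35 (26 higher and 9 lower) with the sparse lymph node libraries left out of the fit and 9 (7 higher and 2 lower) with the median of a gene's sgRNAs, so the count of 0 depended on these settings. The median change from T0 was -1.42 over all genes under IgG, and the medians of the lists, which share the T0 libraries, were side by side -6.57 and -6.44 for ribosomal proteins, -3.77 and -4.02 for complex I, -5.12 and -4.98 for purine synthesis and -2.34 and -1.89 for the mevalonate pathway, under anti-PD-1 and IgG in turn. The share of sgRNAs at the lowest value in the IgG libraries was 42.6%, 28.0% and 11.3%. The smallest p was that of *Slc35c1*, the transporter of GDP-fucose into the Golgi. Its level was 0.72, 1.04 and 0.72 under IgG, -2.19, -5.40 and -4.01 under anti-PD-1 and -0.48, -0.32 and -0.44 in T0. The 2 lung groups did not overlap, and the difference was -4.69 ± 1.06 (SE, limma adjusted p = 0.105), which passed the test without lung anti-PD-1 replicate 1. Against T0 its change under anti-PD-1 was called, but not without lung anti-PD-1 replicate 2 (adjusted p = 0.153). *Ndufa7* (difference 3.31), *Sdhd* (-3.18), *Plcl1* (3.06) and *Ak9* (3.38) had adjusted p-values of 0.91 to 0.93.

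Against the primary tumour under anti-PD-1 no gene differed in the same fit (0 of 2078, 0%), although all 123 genes at an unadjusted p under 0.05 were lower in the lung. The count was 38 with the lymph node libraries left out, 20 with library weights and 6 with the median of the sgRNAs, all lower in the lung. The median change from T0 was -0.20 over all genes in the tumour and -1.07 in the lung, and the median difference between them was -0.79. When libraries were centred on the nontargeting mean that difference was -0.06 and 48 genes had an unadjusted p under 0.05, so its size depended on the centring. The list medians in the lung and the tumour were -6.57 and -5.49 for ribosomal proteins, -3.96 and -2.11 for the vacuolar ATPase, -3.77 and -2.80 for complex I and -0.52 and 0.19 for GPI anchors. The share of sgRNAs at the lowest value was 2.9% to 4.2% in the tumour libraries, below each of the lung libraries, and its part in these differences was not tested. *Pfkfb3*, which makes the activator of phosphofructokinase, had the smallest p. Its level was -1.11, -1.22 and -0.13 in the tumour, -4.47, -5.64 and -3.85 in the lung and -0.33, -0.12 and 0.09 in T0. The lung values lay below all tumour values, and the difference was -3.84 ± 0.87 (SE, limma adjusted p = 0.101). The replicate number was also used as a block over all libraries, a pairing taken from these same values that narrowly met its rule for lung and tumour. With it *Pfkfb3* passed the test (limma adjusted p = 0.0483) and was the one gene that did, which is not independent support. The next were *Slc35a1*, the CMP-sialic acid transporter (-2.90), *Slc7a11*, the cystine transporter (-3.14), *C1galt1c1*, the chaperone of core 1 O-glycan synthesis (-3.27), and *Cox7b* (-2.78), with adjusted p-values from 0.519 to 0.554. Against T0 the call of *Slc7a11* (-3.14, adjusted p = 0.00565) was lost without lung anti-PD-1 replicate 2 (adjusted p = 0.0998).

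**Figure D5:**
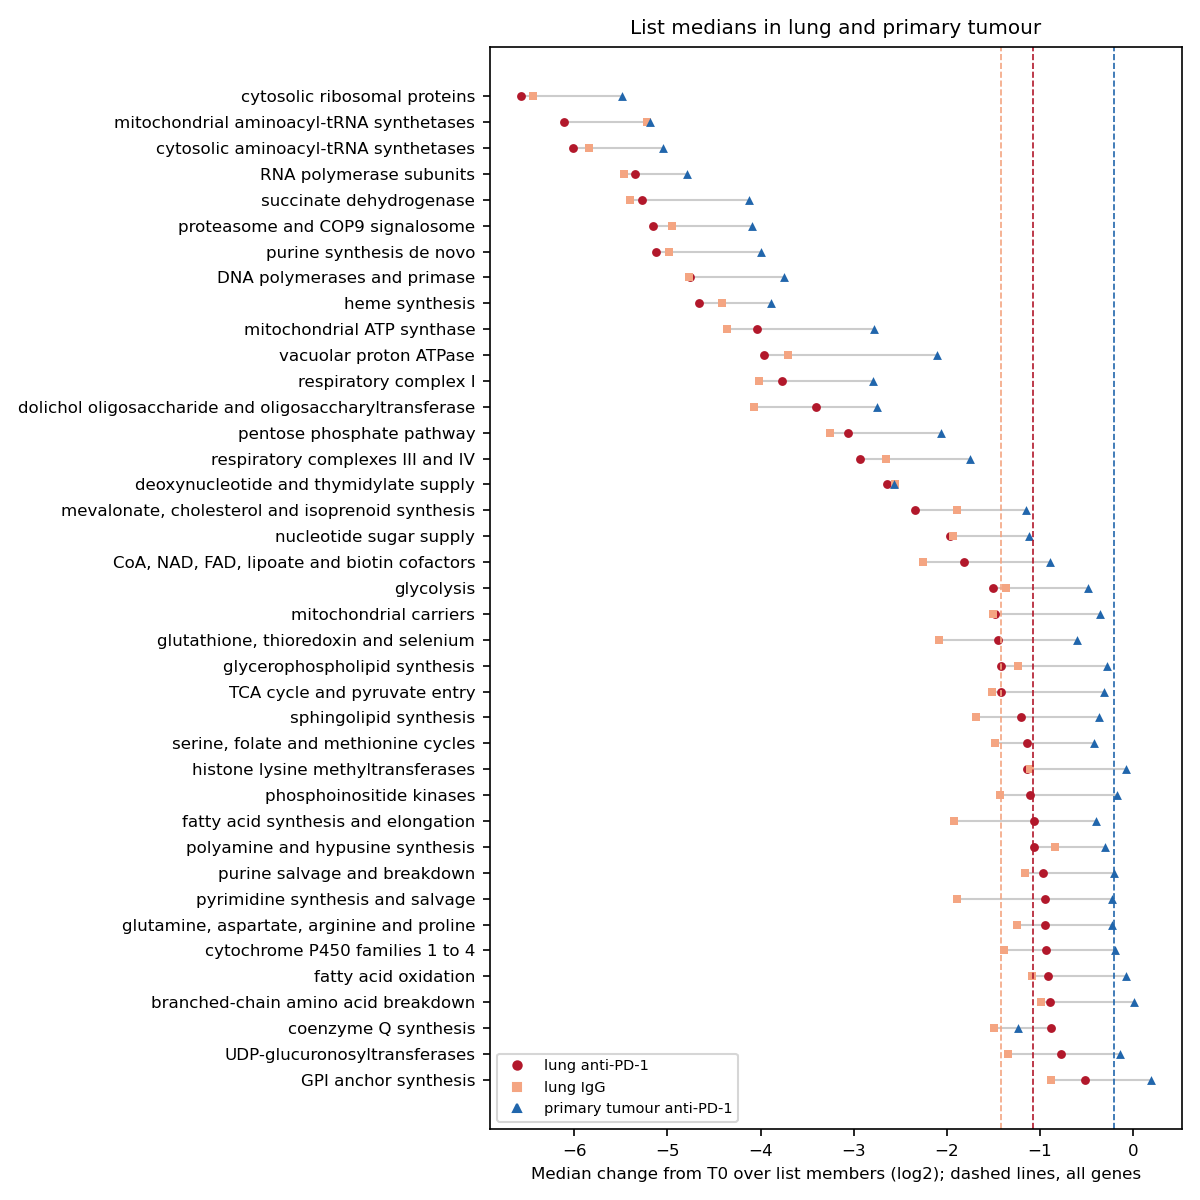
Median change from T0 (x axis, log2) over the members of each of the 39 lists in the lung under anti-PD-1 (circles), the lung under IgG (squares) and the primary tumour under anti-PD-1 (triangles), with dashed lines at the medians of all genes (-1.07, -1.42 and -0.20). The 3 groups share the T0 libraries; ribosomal proteins lie at -6.57, -6.44 and -5.49 and GPI anchor synthesis at -0.52, -0.88 and 0.19, in that order.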

How the data were processed

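The integrated sgRNA cassette was sequenced from genomic DNA of OT-I T cells carrying the CD90.1 reporter in 43 samples, of which 41 carried values. Per the labels the authors used MAGeCK, and their methods describe counting of sgRNAs, normalisation to the 250 nontargeting sgRNAs and batch correction between organs with ComBat, whose settings are not given in the sources used here. The deposited values are thus a normalised signal per sgRNA and not counts, so no count model was run, depth is unknown and no intervals for counting error were made. Samples were grouped by their titles. For each library log2(signal + 1) was centred on the median nontargeting sgRNA and averaged over the 5 sgRNAs of a gene. limma 3.58.1 (lmFit, eBayes) in R 4.3.3 fitted 1 mean for each group over all 41 libraries, with Benjamini-Hochberg adjustment over all 2078 genes, or over all 10640 sgRNAs in the test of single sgRNAs, and a threshold of 0.05. The sparse lymph node libraries share this estimate of the spread. Pathway lists, the comparison and the rule for named genes were chosen with earlier results of these data known. That rule took the 10 largest decreases among depleted genes with at least 4 of 5 sgRNAs below T0, up to 4 depleted members and the highest member of each list, 6 genes that the study names, the 3 smallest and 3 largest SDs over sgRNAs among depleted genes, and the 5 smallest p-values in each of the comparisons with lung IgG and primary tumour anti-PD-1. Deviations of same-numbered libraries from their group means correlated at r = 0.10, 0.18 and 0.10 between lung and tumour under anti-PD-1, -0.17, -0.36 and -0.10 between lung and T0, and -0.11, -0.01 and -0.07 between the lung groups. By the rule that every r be over 0.1 the numbers paired lung and tumour only, a pairing that comes from the values and narrowly met it, since the labels do not say what a number shares. The fit was tested on simulated data. Alternatives changed the pseudocount, centring, summary of sgRNAs, low-value filter, libraries fitted, library weights and replicate block, and left out each library in turn. Sequences of the sgRNAs were not used here. Some genes that the rule names are not reported here.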

Additional observations from a re-analysis of the deposited data

How the results depend on the processing

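The counts moved most with the low-value filter, and also with library weights, the libraries fitted and the centring. Genes depleted numbered 585 with library weights, 567 with the lymph node libraries left out, 541 with values as deposited (no centring) and 100 without the lowest 10% of sgRNAs. All 345 genes were among the calls of the first 3 of these settings, and the 100 were all among the 345. That filter selects on the mean over all libraries and so removes the sgRNAs that fell, leaving 63 of the depleted genes with no sgRNA and 151 with 1 or 2. Without that filter the count lay between 273 (median of the sgRNAs) and 501 (limited to the groups compared) in the other settings, and between 279 and 350 when 1 library was left out. Single sgRNAs depleted numbered 1471 with library weights, 1193 with values as deposited, 17 without the lowest 10% of sgRNAs, and 585 to 998 when 1 library was left out, with the 585 without T0 replicate 3. *Atp6v1b2*, which kept 1 sgRNA under that filter, turned from -5.10 to 1.36 (limma adjusted p = 0.753).

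Genes enriched numbered 1 when the median over all sgRNAs was used for centring (*Pik3cd*), and 3 (*Pik3cd*, *Dgkz* and *Pik3r1*) with library weights, with log2(value + 10), with the lymph nodes left out, with the nontargeting mean for centring and with the groups compared alone. Lymph nodes left out together with the nontargeting mean, chosen after seeing the data, gave 20. The median change of all genes was -1.07 in the fit as designed, -0.26 with the nontargeting mean, -0.62 with the median of all sgRNAs, -0.64 with log2(value + 10), -0.38 with the median of the sgRNAs and -1.63 with values as deposited.

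Between lung anti-PD-1 and lung IgG, 1 gene, *Slc35c1*, differed with centring on all sgRNAs, library weights, log2(value + 10) or the nontargeting mean, 9 with the median of the sgRNAs, 35 with the lymph nodes left out (9 lower and 26 higher) and 74 with the nontargeting mean added to that (49 lower and 25 higher). Leaving out 1 library gave 0 to 1. Between the lung and the primary tumour, 20 differed with library weights, 38 with the lymph nodes left out, 6 with the median of the sgRNAs and 1, *Pfkfb3*, with values as deposited or with the replicate block. The cause of these moves was not tested.

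For T0 and lung IgG, whose same-numbered libraries did not deviate together with those of the lung under anti-PD-1, the numbers were not used as pairs. With the replicate number as a block 360 genes and 904 sgRNAs were depleted against T0 and 0 genes enriched, and 0 differed from lung IgG. Of 3316 values of named genes under an alternative, 3137 stayed on their side of the threshold, 128 lost the call, 50 gained one and 1 reversed. Direction was compared only where the gene was called in the main fit or the alternative. Since depth is unknown, values at the lowest level give only a lower limit on the size of a loss, and no sgRNA at that level can be called absent.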

Other observations

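Of the 69 depleted genes in no list, several fell into further gene families, which were named after their values were seen and taken by gene symbol. They are given as counts and values with no test. Beside them stand the 16.6% of all genes and the 5.41% of genes in no list that were depleted. Among glycosyltransferases the depleted genes were 1 of 9 named *Mgat* (11.1%), 3 of 13 galactosyltransferases (23.1%), 1 of 16 sialyltransferases (6.25%), 1 of 6 fucosyltransferases (16.7%) and 1 of 17 polypeptide N-acetylgalactosaminyltransferases (5.88%), with family medians of -1.54 to -0.27. *Mgat2* (1.17), *St3gal4* (0.84) and *B3gnt2* (1.30), none of them called, were among the 15 highest of all 2078 genes. Of the Golgi nucleotide sugar carriers 3 of 8 were depleted (37.5%, median -1.52). The level of *Slc35a1*, which carries CMP-sialic acid into the Golgi, was -0.46, -0.41 and 0.54 in T0 and -7.07, -7.36 and -7.07 in the lung, with a change of -7.06 ± 0.79 (SE, limma adjusted p = 1.56e-09) and all 15 lung values at the lowest level. The UDP-galactose carrier *Slc35a2* was at -6.12, *Nans*, which makes sialic acid 9-phosphate, at -5.07, and *Mgat1*, which opens the way to complex N-glycans and precedes *Mgat2*, at -6.80. In O-glycan synthesis *C1galt1* and its chaperone *C1galt1c1* were at -4.05 and -6.10, and the sialyltransferase *St3gal1*, which caps the same structure, at -4.07. *B4galt5* (-4.74), which turns glucosylceramide into lactosylceramide, was depleted beside *Ugcg*, the enzyme before it.

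The 3 coatomer subunits in the library, parts of the coat that returns vesicles from the Golgi, were all depleted, with *Copa* (-5.17), *Copb1* (-4.19) and *Copz1* (-4.16). So were its 5 nucleoporins, *Nup93* (-5.31) and *Nup205* (-5.05) and, less firmly, *Nup98* (-4.17, adjusted p = 0.00336, but 0.0588 without lung anti-PD-1 replicate 1), *Nup133* (-3.32, adjusted p = 0.0139, but 0.0557 without lung anti-PD-1 replicate 3) and *Nup54* (-2.65, adjusted p = 0.044, but 0.258 without lung anti-PD-1 replicate 3). Both chains of the CD98 amino acid transporter were depleted, *Slc7a5* (-3.57, adjusted p = 0.0128, but 0.0692 without lung anti-PD-1 replicate 2) and *Slc3a2* (-3.32, adjusted p = 0.0265, but 0.124 without lung anti-PD-1 replicate 3). *Hccs* (-5.67) attaches heme to cytochrome c and *Aasdhppt* (-6.41) attaches phosphopantetheine to carrier proteins. Among 17 kinases and phosphatases of inositol phosphates and phosphoinositides (symbols in Inpp, Itpk and Ip6k) 3 were depleted (17.6%, against 16.6% of all genes), *Itpkb* (-4.58), *Inpp5d* (-4.17) and *Inpp5k* (-4.66), and the median of all 17 was -1.08. Predicted genes and pseudogenes were also called, among them *Gm4459* (-5.00), and whether their sgRNAs cut the parent gene was not tested.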
